A study of Mus musculus with 18 samples.

Results

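Imprinted genes were followed in cell lines grown from mouse malignant peripheral nerve sheath tumors (MPNSTs), soft tissue sarcomas of the nerve sheath. The 35 genes were chosen by name, in 15 imprinted domains. They were classed without regard to tissue, 16 as maternally expressed, 18 as paternally expressed and *Gnas* as expressed from both copies through different promoters. All 35 were among the 35275 genes of the deposited table. RNA-seq counts came from 18 libraries, 3 cultures of each of 6 lines. In 3 lines *Nf1* and p53 (*Trp53*) had been targeted (*Nf1*/*p53*-deleted or double knockout, dKO), and in 3 lines *Nf1* and *Cdkn2a*, the locus of p16 (INK4A) and p19 (ARF) (*Nf1*/*Cdkn2a*-deleted). All tumors were raised in wild-type 129 Sv/Jae mice by injecting an adenovirus with CMV-driven Cas9 and guide RNAs into the sciatic nerve, so that both genotypes shared the loss of *Nf1*, the virus and Cas9. Each line came from 1 tumor and was passaged repeatedly in medium with serum before RNA was taken. The age of the mice is not given in the labels. No normal nerve and no undeleted cells entered the comparison, which asked how the identity of the second deleted tumor suppressor goes with the expression of these genes.

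Imprinting is the marking of a small set of mammalian genes by DNA methylation in the egg or sperm, after which the embryo reads mainly the copy of one parent. Many of these genes lie in domains where 1 methylated control region sets several genes. In the domain of *H19* and *Igf2*, the growth factor IGF2 is made from the paternal copy and the noncoding RNA H19 from the maternal copy, with shared enhancers. Imprinted genes are known for roles in fetal growth, and many are switched down after birth and are active again in tumors. Gene counts hold the sum of both parental copies, so allele of origin was not measured here. The terms maternal and paternal below give only the class a gene was listed under, which may not hold in these lines.

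Several of the noncoding members are hosts of microRNAs (miRNAs), which repress mRNAs that pair with their seed, bases 2 to 8. Of the 35 members, 8 hold a hairpin within their annotated span, and *Mirg* alone holds 14. The mature sequences below (RefSeq, GRCm38.p6, seed in capitals) are shown because they lie in or opposite to members whose levels differed between the lines. The levels of the mature miRNAs were not analysed here. The first pair lies in *H19* (chr7:142577112-142577133 and chr7:142577078-142577099, minus strand), the second in *Igf2* and the fifth sequence in *Mest*. The sixth and the seventh lie on the strand opposite to *Rtl1*, the eighth in *Rian*, and the others in *Mirg*.
miR-675-5p: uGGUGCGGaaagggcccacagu
miR-675-3p: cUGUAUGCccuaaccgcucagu
miR-483-5p: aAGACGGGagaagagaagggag
miR-483-3p: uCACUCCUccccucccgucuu
miR-335-5p: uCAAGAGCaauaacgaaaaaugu
miR-127-3p: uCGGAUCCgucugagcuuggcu
miR-433-3p: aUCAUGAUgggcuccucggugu
miR-370-3p: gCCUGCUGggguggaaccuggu
miR-410-3p: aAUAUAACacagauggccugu
miR-453: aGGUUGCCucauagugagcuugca
miR-496a-5p: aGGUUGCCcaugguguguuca
Of the 56 mature sequences inside members, miR-453 and miR-496a-5p, both in *Mirg*, were the only pair with the same seed (GGUUGCC).

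Promoter windows of 300 bases, from 250 before to 50 after the annotated start, were given for 27 of the 35 members (45 windows, RefSeq, GRCm38.p6). CpG, the dinucleotide that carries DNA methylation, is in capitals. The 5 windows are shown because the levels of their genes differed strongly between lines. *Grb10*, *Mest* and *Meg3* had further windows, and 1 with the most CpG is shown for each.
*Grb10*, chr11:12037371-12037670, minus strand: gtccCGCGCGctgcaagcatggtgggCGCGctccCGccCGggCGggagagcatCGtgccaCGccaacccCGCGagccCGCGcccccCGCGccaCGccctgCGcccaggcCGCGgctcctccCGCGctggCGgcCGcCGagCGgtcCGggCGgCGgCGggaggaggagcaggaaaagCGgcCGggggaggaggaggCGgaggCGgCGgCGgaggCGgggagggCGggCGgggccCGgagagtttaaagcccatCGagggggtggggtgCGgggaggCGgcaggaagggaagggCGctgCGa
*Peg3*, chr7:6730370-6730669, minus strand: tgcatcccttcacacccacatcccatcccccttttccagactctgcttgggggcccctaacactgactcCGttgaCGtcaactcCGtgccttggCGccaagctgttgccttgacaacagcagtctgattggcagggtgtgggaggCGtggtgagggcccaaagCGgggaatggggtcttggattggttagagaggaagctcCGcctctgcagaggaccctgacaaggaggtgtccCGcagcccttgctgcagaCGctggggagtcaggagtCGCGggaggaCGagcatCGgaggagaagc
*Ndn*, chr7:62348027-62348326, plus strand: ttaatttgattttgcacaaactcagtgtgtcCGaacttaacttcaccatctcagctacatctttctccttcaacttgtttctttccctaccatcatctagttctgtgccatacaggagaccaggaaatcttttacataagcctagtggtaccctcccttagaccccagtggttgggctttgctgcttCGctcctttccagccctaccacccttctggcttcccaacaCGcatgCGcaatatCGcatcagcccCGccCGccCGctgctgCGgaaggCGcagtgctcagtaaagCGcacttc
*Mest*, chr6:30737800-30738099, plus strand: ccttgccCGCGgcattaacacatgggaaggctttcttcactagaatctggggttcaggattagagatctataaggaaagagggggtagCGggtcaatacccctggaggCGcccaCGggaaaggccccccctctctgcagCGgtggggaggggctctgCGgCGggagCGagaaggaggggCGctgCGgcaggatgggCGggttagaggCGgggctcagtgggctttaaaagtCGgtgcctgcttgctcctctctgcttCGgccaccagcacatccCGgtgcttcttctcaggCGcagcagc
*Meg3*, chr12:109540746-109541045, plus strand: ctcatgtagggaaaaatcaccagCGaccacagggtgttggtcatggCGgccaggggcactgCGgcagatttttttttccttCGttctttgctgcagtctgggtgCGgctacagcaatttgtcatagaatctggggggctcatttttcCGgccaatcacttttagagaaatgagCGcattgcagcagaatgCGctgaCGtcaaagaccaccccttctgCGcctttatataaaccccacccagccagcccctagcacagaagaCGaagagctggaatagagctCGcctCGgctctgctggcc
The *Grb10* window shown holds 45 CpG, a number reached by 1.93% of the 32851 windows of all genes, whose median is 7. The other *Grb10* window holds 9. The *Peg3* window holds 13 and shares 263 bases with the window of *Usp29*, which is read in the other direction. The hexamer TGCCGC, the letters recognised by the imprint-protecting protein ZFP57 when methylated, was searched on both strands. It is in 10 of the members' 45 windows (9 genes) and in 11.6% of all windows. A pair of nearly identical *Mest* windows (starts 30737800 and 30737803) is counted separately among the 10. The members' windows also hold more CpG (median 11, against 7), and the hexamer holds a CpG. The difference in share was not tested. Of those printed, the *Mest* window holds 2 matches, *Grb10* and *Meg3* 1 each, and *Peg3* and *Ndn* 0. No methylation was measured.

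Levels below are CPM, read counts relative to the TMM-scaled library total, with the cultures of a line summed. The line is the replicate, so n is 3 per genotype. Totals were 19560535 to 28312207 counts per library and 65206479 to 73065228 per line. *Nf1* was at 12.7 to 70.0 CPM over the lines and *Cdkn2a* at 42.9 to 391 CPM, and neither passed the genotype test. *Trp53* was lower in the *Nf1*/*p53*-deleted lines (58.6 to 94.1 CPM) than in the *Nf1*/*Cdkn2a*-deleted lines (185 to 247 CPM, adjusted p = 0.0361, edgeR). Small deletions need not remove a transcript, so the levels of *Nf1* and *Cdkn2a* do not check the labels. Of the 8 mesenchymal markers none was under 1 CPM in all lines, and *Vim* was at 4725 to 10202 CPM, while the 7 Schwann cell markers summed to 1.44 to 10.5 CPM and *Sox10* stayed under 0.1 CPM, although the tumors arose in a nerve. The 8 muscle markers summed to 114 to 578 CPM in the *Nf1*/*p53*-deleted lines and 7.60 to 28.03 CPM in the *Nf1*/*Cdkn2a*-deleted lines. Of the 5 tested, 2 passed, *Myf5* (adjusted p = 0.00672) and *Cdh15* (0.0191), both lower in the *Nf1*/*Cdkn2a*-deleted lines. *Myod1* and *Myog* had 0 counts in all *Nf1*/*Cdkn2a*-deleted lines, and *Pax7* had at most 2 counts in a line of either genotype. The 5 leukocyte markers summed to 3.72 to 8.13 CPM and the 5 endothelial markers to 0.641 to 2.02 CPM. The 5 epithelial markers ranged from 2.67 to 739 CPM over the lines through *Krt8* and *Krt18*.

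Of the 35 members, 27 reached 1 CPM in at least 1 line, and 7 kept at least 10 CPM in every line. The 28 members that passed the filter on low counts were compared between genotypes in edgeR's quasi-likelihood fit over 15207 genes. *H19* was lower in the *Nf1*/*Cdkn2a*-deleted lines and no other member passed (adjusted p under 0.05), against 1.8% of all genes called, 1.16% called lower. At an unadjusted p under 0.05, 10 members were lower and 2 higher, against 12.5% and 9.81% of all genes. For 12 members all lines of one genotype stood above all lines of the other, 10 of them lower in the *Nf1*/*Cdkn2a*-deleted lines, against 31.4% of all genes in either direction, 16.6% lower and 14.8% higher. The median log2 fold change was -0.62 over the 28 members and -0.02 over all genes tested. For the 13 tested maternally expressed members the median was -0.84, and for the 14 paternally expressed ones -0.48. A gene that reaches the filter only through its high group has to differ, so these counts describe the members and are no test of them. The summed muscle markers were also lower in all *Nf1*/*Cdkn2a*-deleted lines, and their part in the lower members was not tested. With 3 lines against 3, an exact permutation test cannot go below p = 0.1.

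**Figure D1:**
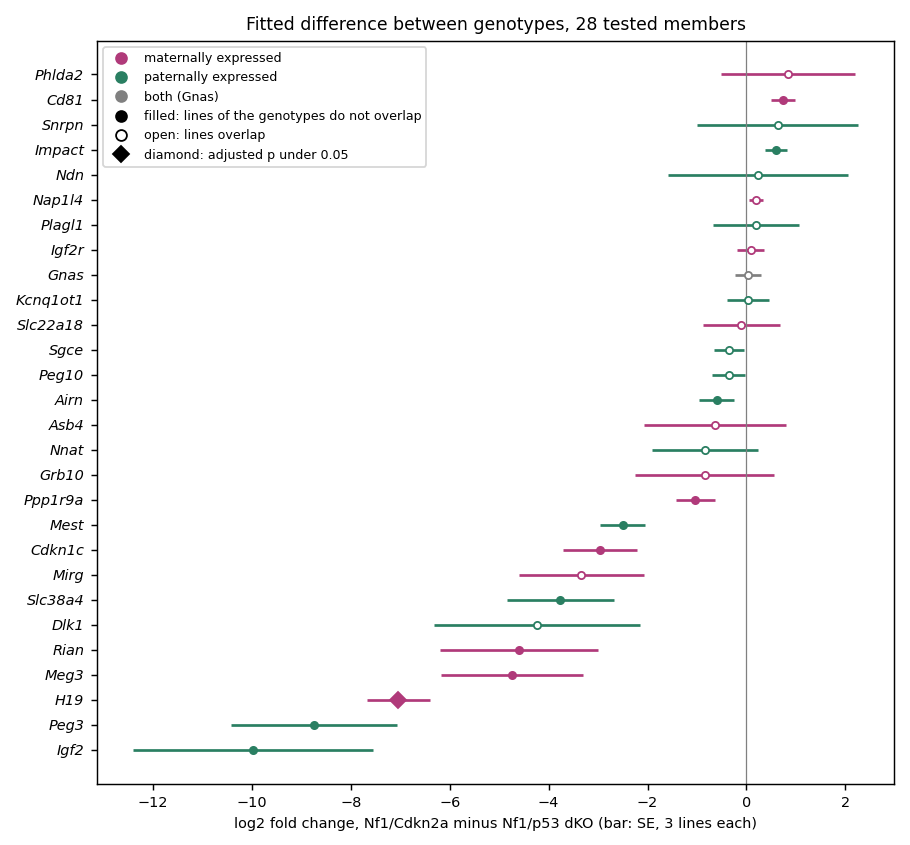
Fitted log2 fold change (horizontal axis, *Nf1*/*Cdkn2a*-deleted minus *Nf1*/*p53*-deleted, bars 1 SE, 3 lines per genotype) for the 28 tested members. *H19* is the only diamond (adjusted p under 0.05), and filled points mark the 12 members whose lines did not overlap.

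*H19*, a growth-restraining noncoding RNA (chr7:142575529-142578143, minus strand), was at 19.03, 40.3 and 69.7 CPM in *Nf1*/*p53*-deleted lines 1, 2 and 3 and at 0.353, 0.202 and 0.422 CPM in *Nf1*/*Cdkn2a*-deleted lines 1, 2 and 3. Every *Nf1*/*p53*-deleted culture stood above every *Nf1*/*Cdkn2a*-deleted culture, with 18.6 CPM as the lowest of the first and 0.724 CPM as the highest of the second. The means were 43.0 ± 25.4 and 0.326 ± 0.113 CPM (SD, n = 3 lines), a log2 fold change of -7.04 ± 0.64 (SE, adjusted p = 0.0189, edgeR quasi-likelihood). Counts of a culture do not tell fewer cells with the RNA from less RNA per cell. The adjusted p was 0.0962, 0.0947 and 0.0669 without *Nf1*/*Cdkn2a*-deleted lines 1, 2 and 3 in turn, fits in which 0, 2 and 23 of all genes were called. Over all 6 lines left out, the log2 fold change stayed between -7.40 and -6.50.

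*Igf2* (chr7:142650766-142666816, minus strand), which encodes a fetal growth factor, was at 4.41, 428 and 5.14 CPM in the *Nf1*/*p53*-deleted lines and at 0.208, 0.159 and 0.0625 CPM in the *Nf1*/*Cdkn2a*-deleted lines. The lines did not overlap, but line 2 held nearly all *Igf2* reads, 30298 of 31012 in that genotype, at 406 to 456 CPM in its 3 cultures. The log2 fold change of -9.98 ± 2.43 did not pass (adjusted p = 0.0858), and it was -5.03 without *Nf1*/*p53*-deleted line 2. The overlapping antisense gene *Igf2os* had 385 counts in the same line and at most 3 in any other, and without a stated strand setting reads of the pair cannot be told apart. Per kilobase of exon, *H19* was 10.0 times *Igf2* in *Nf1*/*p53*-deleted line 1, 31.5 times in line 3 and 0.219 times in line 2. The order of the neighbors was thus turned in 1 of the 3 lines. The summed muscle markers were also higher in the *Nf1*/*p53*-deleted lines. *H19* and *Igf2* were above all *Nf1*/*Cdkn2a*-deleted lines there, but *Igf2* was far higher in line 2 than in lines 1 and 3. Within that genotype *H19* was highest in line 3. The part of the muscle genes in either difference was not tested.

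*Igf2r*, the receptor that clears IGF2, was at 150, 196 and 121 CPM in the *Nf1*/*p53*-deleted lines against 156, 122 and 219 CPM in the *Nf1*/*Cdkn2a*-deleted lines. Its antisense partner *Airn*, the paternal RNA that silences it in cis, was at 1.73, 2.74 and 1.69 CPM against 1.30, 1.34 and 1.41 CPM. *Igf2r* overlapped between genotypes (log2 fold change 0.09 ± 0.27), and *Airn*, which overlaps *Igf2r* on the other strand, was at -0.60 ± 0.35 (adjusted p = 0.354).

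**Figure D2:**
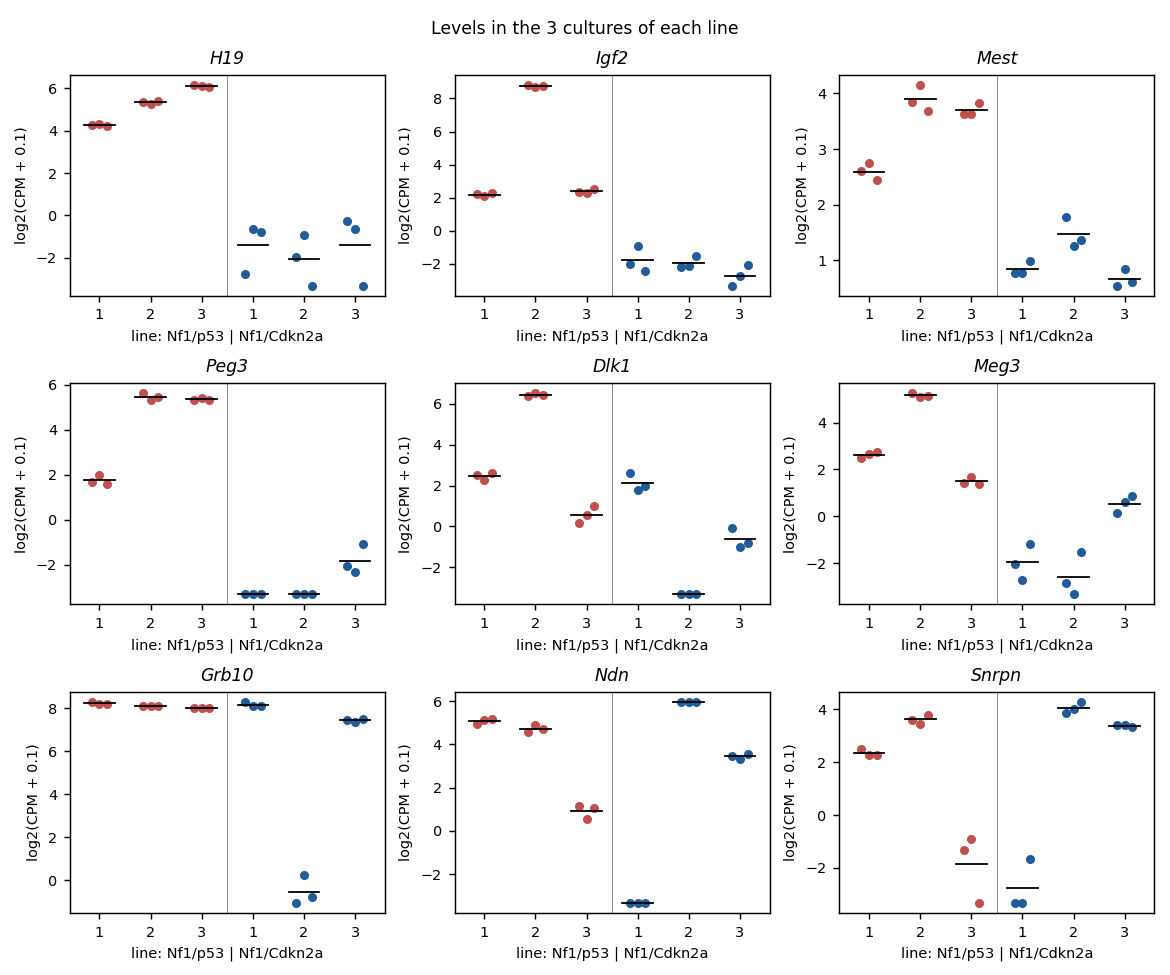
Levels of 9 members on the log2(CPM + 0.1) scale (vertical axis) in each culture (points) of the 3 lines per genotype, with the mean of a line as a bar. *H19* separates the genotypes, *Igf2* and *Dlk1* are highest in *Nf1*/*p53*-deleted line 2, *Grb10* is lost in *Nf1*/*Cdkn2a*-deleted line 2, and *Ndn* and *Snrpn* are lowest in *Nf1*/*Cdkn2a*-deleted line 1.

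In the Dlk1-Meg3 domain the paternal copy gives *Dlk1*, a membrane inhibitor of differentiation, and *Rtl1*, and the maternal copy gives the noncoding RNAs *Meg3*, *Rian* and *Mirg*. *Meg3* (chr12:109541001-109571726, plus strand) was at 6.07, 35.7 and 2.72 CPM in the *Nf1*/*p53*-deleted lines against 0.192, 0.0865 and 1.38 CPM in the *Nf1*/*Cdkn2a*-deleted lines. *Rian* followed with 10.8, 100.2 and 5.57 CPM against 0.561, 0.173 and 4.07 CPM. For *Dlk1* the values were 5.37, 86.7 and 1.42 CPM against 4.39, 0 and 0.579 CPM. All 5 genes of the domain were highest in *Nf1*/*p53*-deleted line 2, whichever parental copy they are read from. *Mirg* was at 0.541, 2.86 and 0.138 CPM against 0.241, 0.0288 and 0.0782 CPM, and *Rtl1* reached at most 69 counts in a line and was not tested.

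*Meg3* and *Rian* did not overlap between genotypes, and *Dlk1* and *Mirg* did. The log2 fold changes were -4.75 ± 1.44 for *Meg3*, -4.60 ± 1.59 for *Rian*, -3.34 ± 1.27 for *Mirg* and -4.23 ± 2.08 for *Dlk1*, with adjusted p from 0.125 to 0.285. Without *Nf1*/*p53*-deleted line 2 they were nearer to 0, -2.98 for *Meg3* and -1.02 for *Dlk1*. In *Nf1*/*Cdkn2a*-deleted line 1 *Dlk1* was at 4.39 CPM while *Meg3* was at 0.192 CPM, so that per kilobase *Meg3* was 0.0137 times *Dlk1*, against 0.129 to 0.744 times in the other lines where both were over 3 counts. *Rian* was 1.76 to 2.93 times *Meg3* per kilobase in all 6 lines. The antisense miRNA cluster over *Rtl1*, whose miR-127 and miR-433 are printed above, leaves the *Rtl1* counts uncertain without strand.

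*Peg3* (chr7:6703892-6730431, minus strand), a paternal zinc finger gene with roles in growth and apoptosis, was at 3.30, 44.1 and 40.8 CPM in the *Nf1*/*p53*-deleted lines. It had 0 counts in *Nf1*/*Cdkn2a*-deleted lines 1 and 2 and 0.203 CPM in line 3, 13 counts in the genotype against 6327. The log2 fold change was -8.74 ± 1.68 (adjusted p = 0.0544). *Usp29* and *Zim1* of the same domain had 11 and 35 counts in the *Nf1*/*p53*-deleted lines and 0 in the *Nf1*/*Cdkn2a*-deleted lines, at least 3.57-fold and 11.4-fold lower against a floor of 3 counts over the genotype. By line, *Usp29* had 2, 0 and 9 counts and *Zim1* 0, 26 and 9 counts in *Nf1*/*p53*-deleted lines 1, 2 and 3. Line 2 for *Usp29* and line 1 for *Zim1* were thus at 0 like the *Nf1*/*Cdkn2a*-deleted lines, and only *Peg3* separated the genotypes.

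*Mest* (chr6:30723547-30748465, plus strand), a paternal gene for a hydrolase active in mesoderm and fat, was at 5.98, 14.97 and 12.9 CPM against 1.72, 2.74 and 1.501 CPM. The genotypes did not overlap, with a log2 fold change of -2.50 ± 0.45 and an adjusted p of 0.0515. With 1 line left out the adjusted p ran from 0.0466 (without *Nf1*/*p53*-deleted line 1) to 0.158, and the other 5 fits did not pass. *Copg2*, which runs against the end of *Mest* on the other strand, was at 34.1 to 43.7 CPM in all lines.

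In the Kcnq1 domain *Cdkn1c*, a maternal inhibitor of cyclin-dependent kinases (p57), was at 10.1, 14.6 and 3.17 CPM in the *Nf1*/*p53*-deleted lines against 1.92, 0.433 and 1.22 CPM in the *Nf1*/*Cdkn2a*-deleted lines. Its lines did not overlap (log2 fold change -2.96 ± 0.75, adjusted p = 0.0912). The paternal RNA *Kcnq1ot1*, which silences the domain in cis, was at 3.30, 7.94 and 6.24 CPM against 5.5002, 8.28 and 4.05 CPM, and overlapped between genotypes. *Cdkn1c* was 23.2 to 140 times *Kcnq1ot1* per kilobase in the *Nf1*/*p53*-deleted lines and 2.39 to 15.97 times in the *Nf1*/*Cdkn2a*-deleted lines. *Cd81*, a tetraspanin at the edge of the domain, went the other way with 107, 86.8 and 136 CPM against 161, 152 and 236 CPM (log2 fold change 0.74 ± 0.24, adjusted p = 0.151). *Nap1l4*, a histone chaperone gene at the far edge, was at 148, 170 and 189 CPM against 191, 207 and 184 CPM. The growth-restraining *Phlda2* was at 0.992, 0.382 and 0.0415 CPM against 0.818, 1.70 and 0.0313 CPM, lowest in line 3 of both genotypes. The transporter gene *Slc22a18* (at most 39 counts in a line), the potassium channel gene *Kcnq1* (20) and *Ascl2* (2), a transcription factor of the placenta, were near the limit of detection, and *Kcnq1* shares its span with *Kcnq1ot1* on the other strand.

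*Grb10* (chr11:11930508-12038683, minus strand) encodes an adaptor that dampens insulin and IGF receptor signalling. It was at 298, 274 and 256 CPM in the *Nf1*/*p53*-deleted lines and 286 and 176 CPM in *Nf1*/*Cdkn2a*-deleted lines 1 and 3. In *Nf1*/*Cdkn2a*-deleted line 2 it was at 0.649 CPM, 0.387 to 1.08 CPM in the 3 cultures. Line 1 was 441 times line 2. The difference between the *Nf1*/*Cdkn2a*-deleted lines passed at an adjusted p of 1.84e-25 (edgeR quasi-likelihood, 1 fit over the cultures of both genotypes). That p measures the spread between cultures of a line. The genotypes overlapped (log2 fold change -0.84 ± 1.41). Neighbors of *Grb10* stood nearer to the other lines in line 2. Against the median of the other 5 lines, *Ddc* was at 0.12 and *Fignl1* at -0.50 on the log2 scale, *Cobl* at -1.62 and *Grb10* at -7.90. *Ddc*, at only 1.17 CPM in line 2, and *Cobl* are themselves on the list of further imprinted genes below. *Fignl1* was thus the only expressed flanking gene outside the imprinted lists within 2 Mb. *Fignl1* was also at -0.31 and -0.53 in *Nf1*/*Cdkn2a*-deleted lines 1 and 3 and at 0.31 to 0.49 in the *Nf1*/*p53*-deleted lines. Its value was therefore not particular to line 2.

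*Snrpn*, *Ndn* and *Magel2*, paternal genes of the region tied to Prader-Willi syndrome, encode a splicing protein and a pair of MAGE family proteins. *Ndn* (chr7:62346569-62350262, plus strand) was at 33.8, 26.5 and 1.81 CPM in the *Nf1*/*p53*-deleted lines and at 0, 62.3 and 10.9 CPM in the *Nf1*/*Cdkn2a*-deleted lines. *Snrpn* was at 4.92, 12.2 and 0.249 CPM against 0.0802, 16.4 and 10.4 CPM. *Magel2* was at 0.0129, 2.66 and 0 CPM against 0, 0.620 and 0.0938 CPM. All 3 were lowest in line 3 among the *Nf1*/*p53*-deleted lines and in line 1 among the *Nf1*/*Cdkn2a*-deleted lines, and *Magel2* was also near 0 in *Nf1*/*p53*-deleted line 1.

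*Ndn* had 0 counts in all 3 cultures of *Nf1*/*Cdkn2a*-deleted line 1 and 4319 counts in line 2. The paternal *Peg12* next to *Magel2*, a gene outside the 35, had the same order in the *Nf1*/*Cdkn2a*-deleted lines (0, 20.5 and 5.35 CPM). *Ube3a*, beside *Snrpn* in the same region, was at 71.7 to 97.3 CPM in all lines. The differences between lines passed in both genotypes, for *Ndn* at adjusted p of 1.09e-17 in the *Nf1*/*p53*-deleted and 9.14e-21 in the *Nf1*/*Cdkn2a*-deleted lines. The genotype comparison showed no direction for *Ndn* or *Snrpn* (log2 fold changes 0.24 ± 1.82 and 0.63 ± 1.63), with the lines overlapping.

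**Figure D3:**
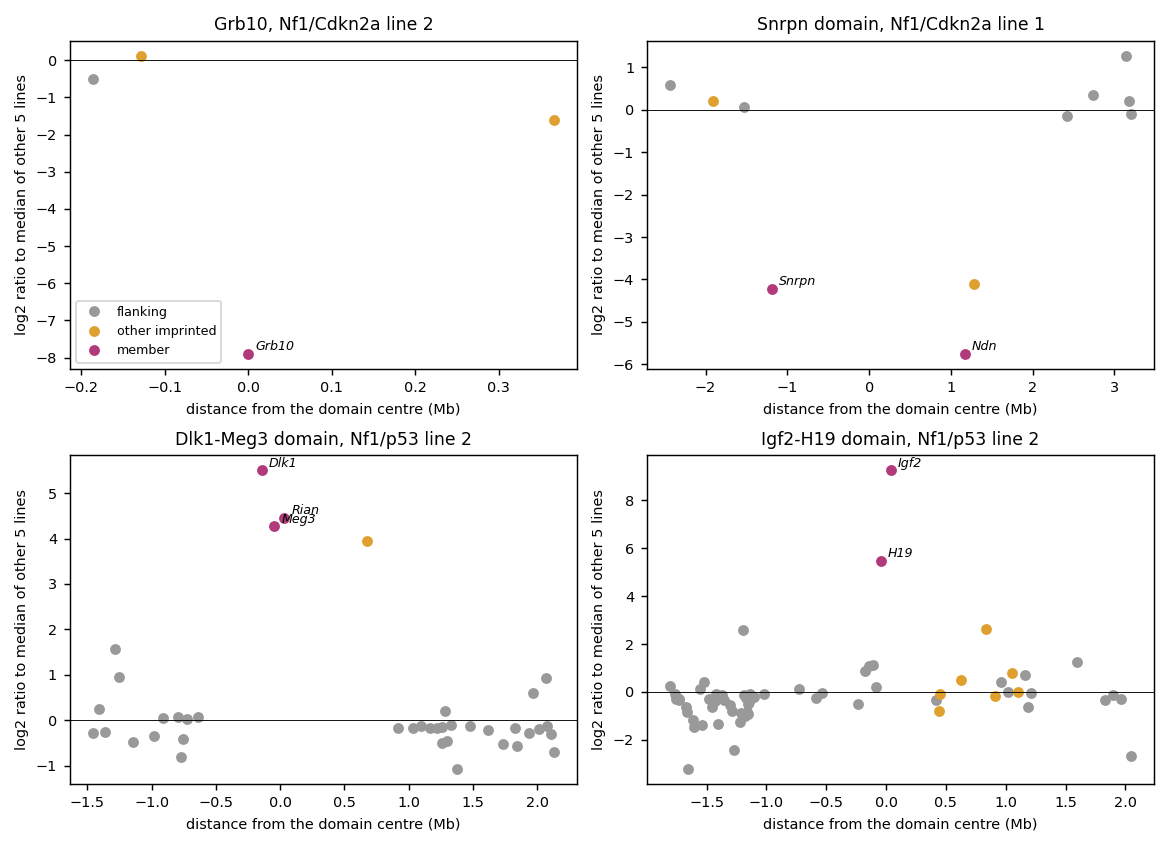
Each point is a gene expressed at a mean of at least 1 CPM within 2 Mb of the domain, placed by its distance from the domain centre in Mb (horizontal) and by its log2 ratio to the median of the other 5 lines (vertical, offset 0.5 CPM). Members stand apart from their flanking genes in 4 line and domain pairs, chosen after the values were seen. For *Nf1*/*p53*-deleted line 2 most of the other lines are *Nf1*/*Cdkn2a*-deleted, so its ratios also hold the difference between genotypes.

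The flanking genes show how far such changes reached. Around the *Snrpn* domain, 7 expressed flanking genes had a median log2 ratio of 0.22 in *Nf1*/*Cdkn2a*-deleted line 1, from -0.15 to 1.28. Around Dlk1-Meg3, 36 flanking genes had a median of -0.17 in *Nf1*/*p53*-deleted line 2, from -1.07 to 1.58, while *Dlk1*, *Meg3* and *Rian* were at 5.501, 4.27 and 4.46. Around Igf2-H19, 56 flanking genes had a median of -0.30 in the same line, from -3.19 to 2.59, with *Igf2* at 9.24. These lines and domains were picked for their members' levels, so the contrast is a description. DNA copy number was not measured.

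*Peg10* and *Sgce*, paternal neighbors read from 1 promoter region in opposite directions, were broadly expressed. *Peg10*, a retrotransposon-derived gene, was at 67.2, 84.3 and 37.9 CPM against 64.7, 37.4 and 45.9 CPM. *Sgce*, a sarcoglycan gene, was at 41.6, 52.1 and 31.1 CPM against 34.9, 21.5 and 41.4 CPM. The ratio of *Sgce* to *Peg10* per kilobase stayed between 0.339 and 0.567 in all 6 lines. Their maternal neighbor *Ppp1r9a*, which encodes an actin-binding protein of neurons, was at 5.05, 3.87 and 6.94 CPM against 2.33, 3.68 and 1.77 CPM, without overlap (log2 fold change -1.03 ± 0.40, adjusted p = 0.196), and *Asb4*, an adaptor of ubiquitin ligases, stayed under 1 CPM in all lines.

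*Slc38a4*, a paternal amino acid transporter, was at 7.90, 44.3 and 2.85 CPM against 1.203, 2.13 and 0.704 CPM (log2 fold change -3.76 ± 1.08, adjusted p = 0.114). Like *Igf2* and *Dlk1* it was highest in *Nf1*/*p53*-deleted line 2. *Plagl1*, a paternal zinc finger gene that acts on other imprinted genes, was at 2.29, 10.5 and 1.13 CPM against 3.69, 3.00 and 9.18 CPM. The highest *Plagl1* values of the genotypes were in *Nf1*/*p53*-deleted line 2 and *Nf1*/*Cdkn2a*-deleted line 3, and the genotypes overlapped.

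*Nnat*, a paternal proteolipid gene of neurons, was at 10.4, 0.961 and 0.664 CPM against 1.27, 2.08 and 3.44 CPM. *Impact*, a paternal regulator of translation under amino acid stress, was at 79.9, 122 and 142 CPM against 178, 168 and 172 CPM, higher in all *Nf1*/*Cdkn2a*-deleted lines without passing (log2 fold change 0.59 ± 0.22, adjusted p = 0.183). *Gnas*, which encodes a G protein subunit, was at 11.8, 11.7 and 17.3 CPM against 10.9, 14.8 and 16.2 CPM, and its counts are uncertain because several transcripts overlap in the locus. *Zdbf2* had at most 34 counts in a line.

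Within a genotype the lines differed in most members. Among *Nf1*/*p53*-deleted lines 28 of 29 members tested passed, *Airn* being the exception, against 73.2% of 14690 genes. Among *Nf1*/*Cdkn2a*-deleted lines 23 of 29 passed, against 56.8%. The 6 that did not were *H19*, *Igf2*, *Airn*, *Mirg*, *Rtl1* and *Impact*, of which *H19*, *Igf2*, *Mirg* and *Rtl1* were under 0.5 CPM in all *Nf1*/*Cdkn2a*-deleted lines. Of the 29 members, 18 were highest in *Nf1*/*p53*-deleted line 2 among the *Nf1*/*p53*-deleted lines, where 30.7% of all genes had their highest value, and 19 were lowest in line 3, against 38.7%. In the *Nf1*/*Cdkn2a*-deleted lines the highest value fell in lines 1, 2 and 3 for 7, 10 and 12 of the 29 members, against 27.5%, 33.8% and 38.7% of all genes. The filter of this fit can be reached through 1 high line, and such a gene has to differ between lines. Neighbors of a domain are also counted apart though they can vary together. These counts thus describe the members and are no test of them.

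**Figure D4:**
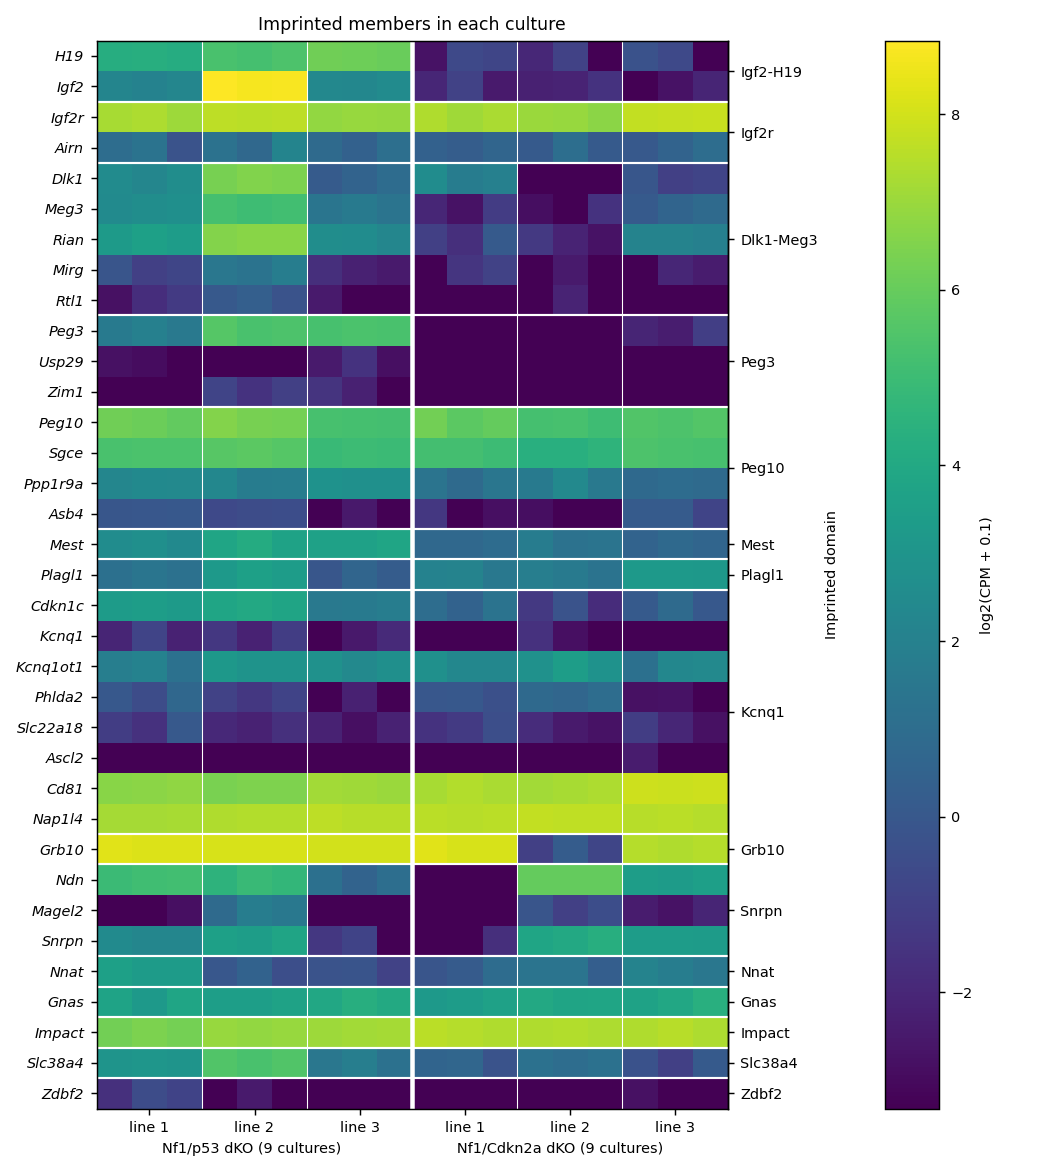
Each of the 35 members (rows, grouped by domain) in each of the 18 cultures (columns, 3 per line), colored by log2(CPM + 0.1). *H19*, *Igf2* and *Peg3* are among the members dark in all *Nf1*/*Cdkn2a*-deleted lines. *Grb10*, *Ndn* and *Snrpn* are dark in single *Nf1*/*Cdkn2a*-deleted lines, *Snrpn* also in *Nf1*/*p53*-deleted line 3.

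When the 18 cultures were entered as separate samples in DESeq2, 14 members passed, 11 of them lower in the *Nf1*/*Cdkn2a*-deleted lines, against 45.3% of all genes. That fit takes cultures of 1 tumor line as independent, and its p-values measure the spread between cultures more than that between tumors.

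Of 16 genes of IGF signalling, 15 were tested and 2 were lower in the *Nf1*/*Cdkn2a*-deleted lines. *Igf2bp3*, an oncofetal RNA-binding protein known to bind *Igf2* mRNA, was at 9.73, 18.8 and 8.31 CPM against 0.224, 0.216 and 0.156 CPM (log2 fold change -5.94 ± 0.48, adjusted p = 0.0170, edgeR). *Igfbp2*, a secreted IGF-binding protein, was at 62.7, 119 and 13.4 CPM against 0, 0.0288 and 0.453 CPM (log2 fold change -8.66 ± 1.49, adjusted p = 0.0482). Both were low in every *Nf1*/*Cdkn2a*-deleted line. The highest fitted fold change of the list was that of *Igfbp4*, 1.90 ± 0.92, which did not pass (adjusted p = 0.281). The median of the list was 0.17. *Igf2bp3* lost the call without any one *Nf1*/*Cdkn2a*-deleted line (adjusted p from 0.0537 to 0.0929), and *Igfbp2* without any one of the 6 lines (0.0528 to 0.143). With a line left out the log2 fold change was -6.15 to -5.48 for *Igf2bp3* and -11.9 to -7.87 for *Igfbp2*.

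Of 15 genes that keep or read imprints, 13 were tested and *Setdb1*, a histone H3 lysine methyltransferase recruited through TRIM28, was the only one called. It was at 109, 103 and 130 CPM against 54.3, 53.2 and 53.04 CPM (log2 fold change -1.09 ± 0.14, adjusted p = 0.0287). The call was lost without *Nf1*/*p53*-deleted line 2 (adjusted p = 0.0659) or any one *Nf1*/*Cdkn2a*-deleted line (0.0973 to 0.124), while the log2 fold change stayed between -1.15 and -0.98 with a line left out. *Zfp57*, the zinc finger that binds methylated imprints, had the highest fitted value, 0.87 ± 1.13 (adjusted p = 0.683), and was at 12.4, 14.1 and 1.44 CPM against 13.4, 35.7 and 1.77 CPM, lowest in line 3 of both genotypes. The list's median was -0.18.

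Of 34 further imprinted genes in the table, 26 were tested, with a median of -0.07. *Dcn*, which encodes the matrix proteoglycan decorin, was the only one called, at 119, 104 and 934 CPM against 3.40, 6.59 and 4.28 CPM (log2 fold change -6.34 ± 1.08, adjusted p = 0.0470). Its call was lost without *Nf1*/*p53*-deleted line 1 or 2 (0.0541 and 0.0674) or any one *Nf1*/*Cdkn2a*-deleted line (0.141 to 0.153), and without *Nf1*/*p53*-deleted line 3 the log2 fold change was -4.55. *Rasgrf1* had the highest fitted value of that list, 3.81 ± 1.39 (adjusted p = 0.178). Of the 7 genes next to *Igf2* and *H19*, all tested, none passed, 3 being at an unadjusted p under 0.05, against 22.4% of all genes. Their fitted log2 fold changes ran from -2.20 ± 1.75 for the troponin gene *Tnni2* to 0.77 ± 0.20 for the protease gene *Ctsd*.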

How the data were processed

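RNA-seq libraries of 3 cultures of each of 6 MPNST lines were prepared by a company. Raw counts (whole numbers of reads for each gene in each library) were deposited by the authors and had not been normalized. The submitters' processing notes name CASAVA, STAR 2.5, DESeq2 1.14.1 and the build GRCm38 (mm10). The counting tool, the annotation and the strand setting are not given in the sources used here. Genotype, line and culture came from the column names. Gene positions and exon lengths were taken from GENCODE M21 (GRCm38), which holds 34490 of the 35275 genes, and RefSeq gave promoter and miRNA sequences.

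Counts of the cultures were added up within lines, filtered with filterByExpr (minimum count 10, minimum total 15), scaled with TMM (factors 0.941 to 1.06) and compared with edgeR 4.0.16 (quasi-likelihood, Benjamini-Hochberg over all genes, threshold 0.05, R 4.3.3). Positive log2 fold changes are higher in the *Nf1*/*Cdkn2a* dKO. Lines of 1 genotype were compared within 1 edgeR fit over the cultures of both genotypes, which also shared the filter on low counts. The labels do not say that cultures were grown separately, and they differed by more than sampling noise. DESeq2 1.42.0, other scalings, no filter, replicate blocks and each line or culture number left out were tried. The steps were tested on simulated counts. Pairs of lines with the same number in the 2 genotypes had correlations of their deviations from -0.130 to -0.0831. Pairs with different numbers had 0.020 to 0.082. These values do not show pairing by number, and with 3 lines per genotype they cannot exclude it. All 35 members are accounted for, with line values for those at 1 CPM or more in a line. Of the other lists, called genes and the highest and lowest fitted are named. *Ube3a*, *Peg12*, *Ddc*, *Fignl1*, *Cobl*, *Copg2*, *Igf2os* and the flanking genes were chosen after their values were seen. The members and lists were chosen with earlier results of these data known. Bounds on counts cover counting error only, since no molecular identifiers are stated.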

Additional observations from a re-analysis of the deposited data

Results flagged for a closer look

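Over the 9 cultures of a genotype, 4 of 56 sets of member values had 1 culture whose distance to the nearest other, as a share of the whole range, was above the critical value of 0.493, and chance gives about 1 in 20 for independent values. Cultures of 1 line share a tumor, which that rate does not take into account. *Airn* was at 4.44 CPM in culture 3 of *Nf1*/*p53* dKO line 2 and at most 2.39 CPM in the others (share 0.557). *Peg3* was at 0.371 CPM, 8 counts, in culture 3 of *Nf1*/*Cdkn2a* dKO line 3, with the next at 0.136 CPM (share 0.634). *Ppp1r9a* was at 5.13 CPM in culture 2 of *Nf1*/*Cdkn2a* dKO line 2, with the next at 2.98 CPM (share 0.623). *Slc22a18* was at 0.965 CPM, 24 counts, in culture 3 of *Nf1*/*p53* dKO line 1, with the next at 0.361 CPM (share 0.653).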

How the results depend on the processing

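The number of members called between genotypes was 1. It was 14 with DESeq2 on the 18 cultures, 8 with DESeq2 on the 6 lines (where *Igf2* had no adjusted p), 3 with raw total counts, 3 with no filter, 13 with the culture number as a replicate block and 0 to 2 with a line left out (0 without any one *Nf1*/*Cdkn2a* dKO line, with 8 to 10 members at an unadjusted p under 0.05). With the line number as a replicate block it was 0, with 8 members at an unadjusted p under 0.05. All genes called numbered 274. They numbered 6896 with DESeq2 on the cultures, 2171 with DESeq2 on the lines, 423 with raw total counts and 411 of 23859 with no filter. The culture block gave 5681 and the line block 0. With a line left out 0 to 172 genes were called (0 without *Nf1*/*Cdkn2a* dKO line 1, with 2668 genes at an unadjusted p under 0.05). With the line block 2740 genes were at an unadjusted p under 0.05, and the cause of the loss was not tested. Correlations between samples of the same number (from -0.130 to -0.0831 for lines and from -0.0956 to 0.147 for cultures) do not show pairing and cannot exclude it. *H19* was at -6.91 with the line block (adjusted p = 0.0963). The 4 other listed genes called became 30, 13, 25 and 0 under DESeq2 on the cultures, DESeq2 on the lines, the culture block and the line block, and 0 to 3 with a line left out, alternatives applied to them after seeing the data. The members' median log2 fold change stayed negative, from -0.76 to -0.33, and raw total counts moved the median of all genes from -0.02 to -0.16. Members near 0 changed sign. With raw totals *Igf2r* was at -0.044, *Kcnq1ot1* at -0.094 and *Gnas* at -0.10, and with the line block *Slc22a18* was at 0.018 and *Nnat* at 0.38. With a line left out the ranges were -0.16 to 0.30 for *Igf2r*, -2.97 to 0.058 for *Asb4*, -0.47 to 1.64 for *Plagl1*, -0.28 to 0.33 for *Kcnq1ot1*, -0.15 to 2.00 for *Phlda2*, -0.75 to 0.84 for *Slc22a18*, -1.92 to 0.83 for *Ndn*, -0.14 to 1.80 for *Snrpn*, -1.33 to 1.48 for *Nnat* and -0.079 to 0.25 for *Gnas*. Members that differed between lines numbered 27 to 30 for the *Nf1*/*p53* dKO and 20 to 23 for the *Nf1*/*Cdkn2a* dKO under every alternative run. Members under 10 counts in every line cannot be compared at this depth, and single line values under 10 counts are imprecise.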
